A study of Arabidopsis thaliana with 28 samples.

Results

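The photosystem, antenna and Rubisco genes of the Arabidopsis thaliana nucleus were followed here as a module of 44 genes, given by locus, out of 27416 genes in the count tables. They comprise 13 LHCB genes for the antenna of photosystem II, 4 LHCA genes for the antenna of photosystem I, 12 genes for photosystem I subunits, 10 genes for photosystem II subunits, and 5 Rubisco genes, of which 4 encode the small subunit (RBCS) and 1 encodes Rubisco activase (RCA). Every one of the 44 passed the filter on low counts.

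Polyadenylated RNA from closed flower buds had been sequenced in 4 genotypes with 2 libraries each: the double mutant ibm1 jmj27, the mutant pds5, the mutant ibm1, and Col, the Columbia control. IBM1 and JMJ27 encode histone demethylases of the JmjC family that act on lysine 9 of histone H3, and PDS5 proteins associate with cohesin, the complex that holds sister chromatids together. The labels name neither the alleles nor which of the PDS5 genes the pds5 line lacks. They describe a long-day and a short-day chamber without assigning libraries to either, and give no harvest time. They also do not say whether replicate libraries came from separate plants, so the spread between replicates may be technical. The p-values rest on that spread pooled over all 4 genotypes, not only over the pair compared. The 20 chromatin samples of the series were not analysed here.

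Light is captured by chlorophyll-binding LHC proteins and passed to the reaction centres of the photosystems, which drive electrons from water to ferredoxin. Rubisco then fixes carbon dioxide with the energy gained, and Rubisco activase frees its active sites of bound sugar phosphates. The reaction centre cores and the large Rubisco subunit are encoded in the plastid, whereas the genes described here are transcribed in the nucleus, in green tissue, under control of light, the circadian clock and signals from the plastid. In a closed bud the sepals are the main green organ, with carpels and young anthers also holding chloroplasts.

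Library totals ranged from 19490663 to 26038662 counts. The targeted genes were low where the labels imply it: IBM1 had 18.8 and 21.4 CPM (counts scaled to a common library size) in ibm1 jmj27 and 21.2 and 19.95 CPM in ibm1, against 52.5 and 55.5 CPM in Col, and JMJ27 had 8.35 and 8.40 CPM in ibm1 jmj27 against 64.0 and 64.7 CPM in Col. In pds5, PDS5A had 3.30 and 3.51 CPM against 236 and 249 CPM in Col, PDS5B 4.96 and 4.09 against 69.8 and 66.8 CPM, and PDS5C 42.9 and 37.5 against 144 and 144 CPM. PDS5A was also at 107 and 111 CPM in ibm1, and PDS5B at 39.8 and 48.2 CPM in ibm1 jmj27. PDS5E had 81.7 and 76.7 CPM in pds5, against 145 and 147 CPM in Col. It was also at 104 and 104 CPM in ibm1 jmj27 and 108 and 104 CPM in ibm1. PDS5D had 39.6 and 39.8 CPM in pds5, against 37.1 and 36.7 CPM in Col. The replicate libraries of ibm1 jmj27 stood farther apart than those of the other genotypes, with a chi-square per degree of freedom over genes of 15.0, against 5.78 in pds5, 2.34 in ibm1 and 2.95 in Col.

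The module was higher in all 3 mutants than in Col, most in ibm1 jmj27 and least in pds5. The 44 genes took 6.08% and 6.35% of all counts in the ibm1 jmj27 libraries, 4.48% and 4.57% in pds5, 5.35% and 5.24% in ibm1, and 3.41% and 3.32% in Col. No library of any mutant overlapped the Col libraries in this share. RBCS1A alone had more counts than any other gene of the genome in each of the 8 libraries, from 0.569% of counts in a Col library to 0.832% in an ibm1 jmj27 library. By genotype mean, ibm1 jmj27 was the highest of the 4 genotypes for 34 of the 44 genes and ibm1 for the other 10, while Col was the lowest for 35, pds5 for 8 and ibm1 for 1.

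**Figure D1:**
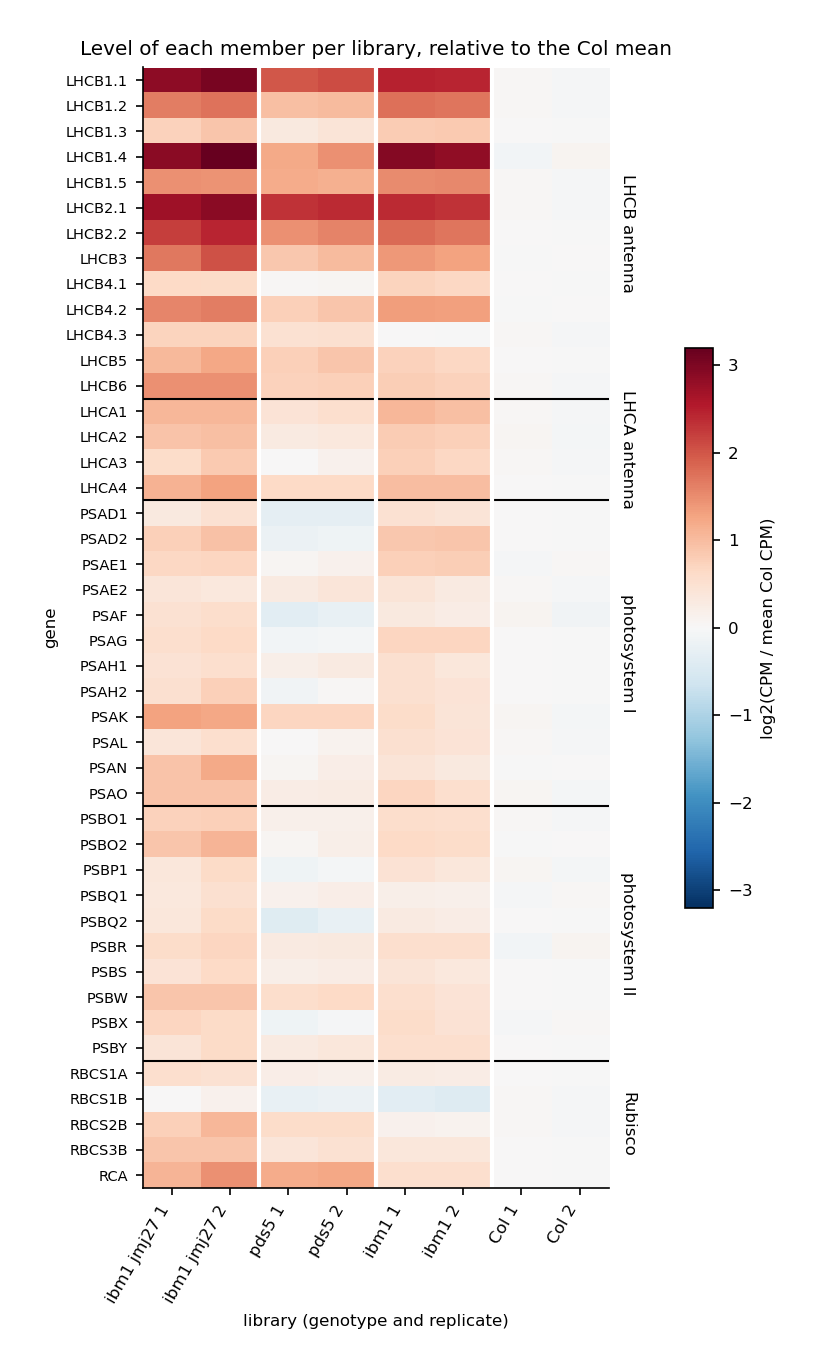
Each row is 1 of the 44 genes and each column 1 of the 8 libraries, in the order ibm1 jmj27, pds5, ibm1 and Col, and the colour gives the log2 ratio of the CPM to the mean CPM of the 2 Col libraries. The reddest rows are LHCB1.4, LHCB1.1 and LHCB2.1, and outside the Col columns the pale blue cells lie in the pds5 columns of photosystem I and II and in the RBCS1B row.

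Tested gene by gene with edgeR's quasi-likelihood test, with p-values adjusted by Benjamini-Hochberg over 21548 genes and a threshold of 0.05, 43 of the 44 genes rose in ibm1 jmj27 and 0 fell. The background was large, since 50.5% of all tested genes passed in this comparison, 26.7% as higher and 23.8% as lower. In pds5, 25 rose, 4 fell and 15 did not pass, against 49% of all tested genes passing, 25.8% as higher and 23.2% as lower. In ibm1, 40 rose, 1 fell and 3 did not pass, against 31% of all tested genes passing, 16.5% as higher and 14.5% as lower. The median log2 fold change over the 44 genes was 0.83 in ibm1 jmj27, 0.31 in pds5 and 0.55 in ibm1, beside medians over all tested genes of 0.03, 0.00 and 0.02 in the same comparisons. Rises of at least 1 on the log2 scale were seen for 15 members in ibm1 jmj27, 6 in pds5 and 9 in ibm1, against 7.93%, 8.04% and 3.58% of all tested genes. The 4 falls in pds5 became 0 without pds5 replicate 1 or Col replicate 1. Without either ibm1 jmj27 library, PSAD2 also passed as lower in pds5 and PSAN, PSBO1, PSBO2, PSBQ1, PSBS and RBCS1A as higher (edgeR adjusted p = 5.3e-04 to 0.0418), and PSBQ1 and RBCS2B passed as higher in ibm1 (edgeR adjusted p = 0.0054 to 0.0317). These comparisons share the same Col libraries and are therefore not independent of each other. They also share a spread pooled over all libraries, including the wide ibm1 jmj27 pair. A gene that did not pass in pds5 or ibm1 was thus not judged by the spread of the compared libraries alone. With pds5 and Col fitted alone, PSAD2, PSBO1, PSBO2, PSBQ1, PSBS and RBCS1A also passed, while the 25 rises and 4 falls in pds5 held. In bulk buds, fewer cells of a type and less RNA per cell cannot be told apart.

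**Figure D2:**
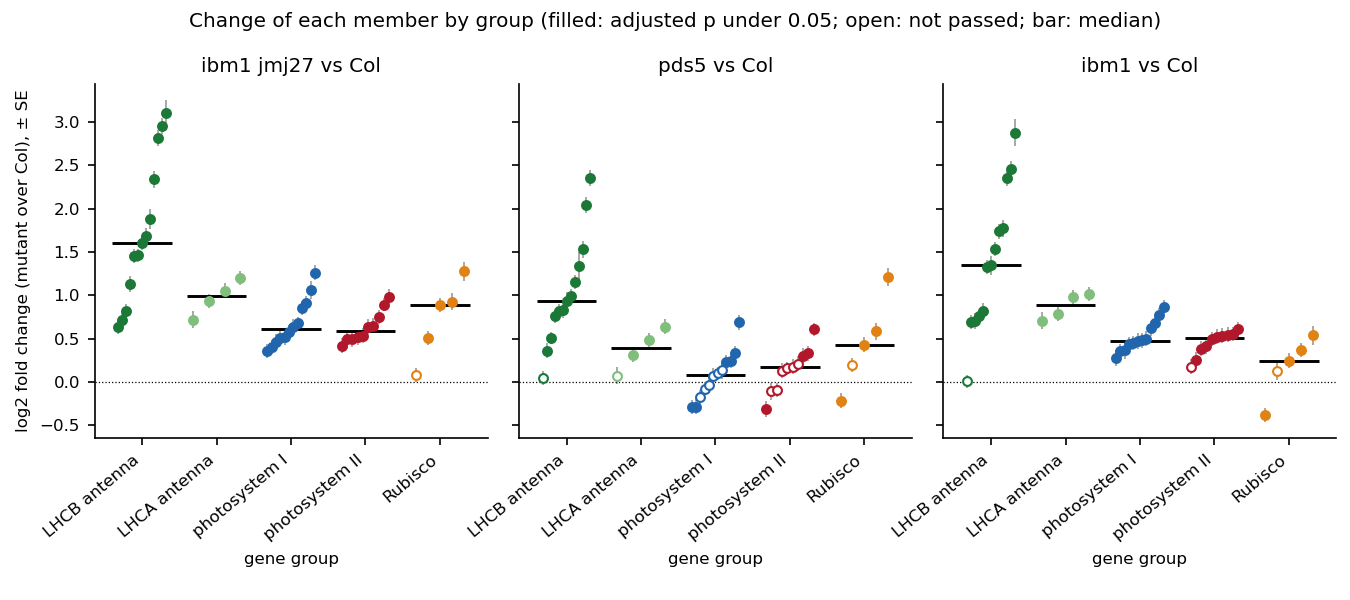
Each point is the log2 fold change of 1 gene, mutant over Col, with its standard error, by gene group and with 1 panel each for ibm1 jmj27, pds5 and ibm1; filled points passed the test, open points did not, and the black bars are group medians. The LHCB antenna has the highest median in each panel (1.60, 0.93 and 1.35), and photosystem I and II in pds5 lie around 0.

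The largest change of the module was that of an LHCB gene in every mutant: LHCB1.4 in ibm1 jmj27, LHCB2.1 in pds5 and LHCB1.4 in ibm1. LHCB1 and LHCB2 make the trimers of LHCII, the most abundant membrane protein of chloroplasts, LHCB3 is a further trimer subunit, and LHCB4, LHCB5 and LHCB6 are the monomeric proteins that connect trimers to the photosystem II core. All 13 LHCB genes rose in ibm1 jmj27, 12 rose in pds5 and 12 in ibm1. Of all tested genes, 26.7%, 25.8% and 16.5% passed as higher in these comparisons. The median log2 fold change was 1.60, 0.93 and 1.35 in ibm1 jmj27, pds5 and ibm1. Within the family, the 7 genes for LHCB1 and LHCB2 had medians of 2.34, 1.34 and 1.77, and the 6 genes for LHCB3 to LHCB6 had medians of 1.298, 0.79 and 0.73. Without the 5 LHCB1 genes, the 8 remaining LHCB genes had medians of 1.53, 0.82 and 1.04.

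LHCB1.3 (AT1G29930), the most highly counted of the LHCB1 copies, had 5474 and 6043 CPM in ibm1 jmj27, 4089 and 4321 CPM in pds5, 5719 and 5846 CPM in ibm1, and 3287 and 3259 CPM in Col. Every mutant library exceeded both Col libraries, and those of ibm1 lay within the range of ibm1 jmj27. The log2 fold change was 0.82 ± 0.09 (SE) in ibm1 jmj27 (edgeR adjusted p = 3.7e-06), 0.36 ± 0.09 in pds5 (edgeR adjusted p = 0.0034) and 0.82 ± 0.09 in ibm1 (edgeR adjusted p = 9.9e-06). LHCB1.3 thus had the smallest change of the LHCB1 genes in each mutant.

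LHCB1.1 (AT1G29920) had 2264 and 2522 CPM in ibm1 jmj27, 1232 and 1321 CPM in pds5, 1719 and 1684 CPM in ibm1, and 316 and 304 CPM in Col. Here the 4 genotypes did not overlap with each other, and the log2 fold change over Col was 2.95 ± 0.09 in ibm1 jmj27, 2.04 ± 0.09 in pds5 and 2.46 ± 0.09 in ibm1 (edgeR adjusted p = 1.5e-11, 4.3e-10 and 6.7e-10). LHCB1.4 (AT2G34430), which had few counts, was at 41.5 and 55.3 CPM in ibm1 jmj27, 13.1 and 15.5 CPM in pds5, 42.7 and 40.01 CPM in ibm1, and 5.26 and 5.97 CPM in Col. Its log2 fold change was the highest of the module in ibm1 jmj27, at 3.098 ± 0.15, and in ibm1, at 2.87 ± 0.16, while in pds5 it was 1.34 ± 0.17 (edgeR adjusted p = 6.8e-09, 7.0e-08 and 3.3e-05). LHCB1.2 and LHCB1.5 had log2 fold changes of 1.69 and 1.46 in ibm1 jmj27, 0.99 and 1.15 in pds5, and 1.74 and 1.53 in ibm1, all of which passed.

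The 2 LHCB2 genes of the module had the steepest summed change. LHCB2.1 (AT2G05100) had 1067 and 1206 CPM in ibm1 jmj27, 801 and 851 CPM in pds5, 842 and 802 CPM in ibm1, and 166 and 157 CPM in Col. LHCB2.2 (AT2G05070) had 947 and 1111 CPM in ibm1 jmj27, 560 and 616 CPM in pds5, 718 and 673 CPM in ibm1, and 206 and 201 CPM in Col. Both were highest in the ibm1 jmj27 libraries and several times above Col in every mutant library, with log2 fold changes of 2.81 ± 0.09, 2.35 ± 0.09 and 2.35 ± 0.09 for LHCB2.1 and 2.34 ± 0.10, 1.53 ± 0.09 and 1.77 ± 0.10 for LHCB2.2 in ibm1 jmj27, pds5 and ibm1. The 2 genes together were 5.93-fold higher in ibm1 jmj27, 3.87-fold in pds5 and 4.15-fold in ibm1, beside 2.45-fold, 1.70-fold and 2.35-fold for the 5 LHCB1 genes. LHCB3 rose by 1.88 ± 0.11, 0.93 ± 0.11 and 1.35 ± 0.11 on the log2 scale.

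The monomeric antenna genes did not move as 1 unit. LHCB4.1 (AT5G01530) had 1298 and 1275 CPM in ibm1 jmj27, 843 and 869 CPM in pds5, 1364 and 1309 CPM in ibm1, and 836 and 821 CPM in Col. It rose in ibm1 jmj27 (0.63 ± 0.08, edgeR adjusted p = 1.4e-05) and in ibm1 (0.69 ± 0.08, edgeR adjusted p = 1.8e-05), and did not pass in pds5, where the log2 difference was 0.05 ± 0.08 (edgeR adjusted p = 0.64). LHCB4.2, which encodes the same CP29 protein in a second form, rose in all 3 mutants, by 1.60, 0.82 and 1.33 on the log2 scale. LHCB4.3 (AT2G40100), the most divergent CP29 gene, had 248 and 249 CPM in ibm1 jmj27, 213 and 217 CPM in pds5, 154 and 150 CPM in ibm1, and 155 and 147 CPM in Col. It rose in ibm1 jmj27 (0.72 ± 0.07, edgeR adjusted p = 2.0e-06) and in pds5 (0.51 ± 0.07, edgeR adjusted p = 5.2e-05), while the ibm1 libraries overlapped those of Col (0.01 ± 0.07, edgeR adjusted p = 0.94, a sign that turned under other fits). LHCB5 (CP26) rose by 1.13, 0.83 and 0.71, and LHCB6 (CP24) by 1.46, 0.76 and 0.76.

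The copies of a family therefore took different shares of its counts in the mutants than in Col. LHCB1.3 made up 47.4% and 48.4% of LHCB1 counts in ibm1 jmj27, 50.1% and 51.1% in pds5, 49.8% and 50.7% in ibm1, and 66.4% and 67.2% in Col. LHCB1.1 made up 19.6% and 20.2% in ibm1 jmj27, 15.1% and 15.6% in pds5, 15.0% and 14.6% in ibm1, and 6.38% and 6.26% in Col. LHCB2.1 took 53.0% and 52.1% of the counts of the LHCB2 pair in ibm1 jmj27, 58.8% and 58.0% in pds5, 54.0% and 54.4% in ibm1, and 44.6% and 43.8% in Col, so that it was the larger copy in every mutant library and the smaller in both Col libraries. In the LHCB4 family, LHCB4.1 fell to 59.7% and 58.2% in ibm1 jmj27, 59.5% and 58.8% in pds5 and 66.4% and 65.7% in ibm1, against 69.4% and 69.5% in Col. With 2 libraries per genotype an exact permutation test of a share cannot go below p = 0.333, so these shares are given without a test. Their 95% Wilson intervals reach at most 1.14 percentage points either side and cover counting error only.

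These shares depend on how reads were divided among near-identical copies. LHCB1.2, LHCB1.1 and LHCB1.3 lie next to each other on chromosome 1 with 0 genes between them in the TAIR10.1 annotation, as do LHCB2.2 and LHCB2.1, and LHCB1.5 and LHCB1.4, on chromosome 2, and RBCS3B, RBCS2B and RBCS1B on chromosome 5. The handling of reads with several matches and of strand is not given in the sources used here, so values of single LHCB1, LHCB2 and RBCS copies are uncertain. Family sums are less exposed to how reads were divided among copies, but would also lack any reads that were dropped for having several matches. LHCB1 summed to 12013 ± 653 CPM (SD, n = 2 here and below) in ibm1 jmj27, 8308 ± 202 in pds5, 11513 ± 39.7 in ibm1 and 4899 ± 69.1 in Col.

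**Figure D3:**
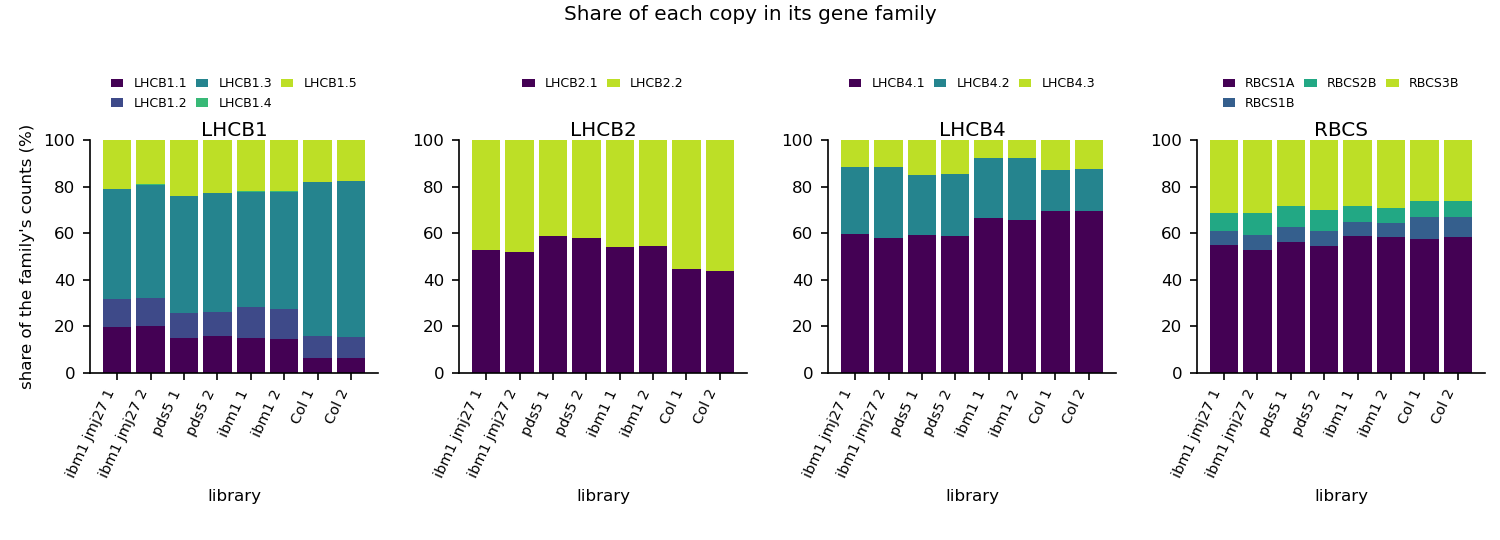
Stacked bars give the percentage of counts on each copy, per library, among the copies in the module of LHCB1, LHCB2, LHCB4 and RBCS. LHCB2.3 is outside the module and not in the LHCB2 bar. The libraries of ibm1 jmj27, pds5, ibm1 and Col run from left to right. LHCB1.3 covers 66.4% and 67.2% of the LHCB1 bar in Col and at most 51.1% in the mutant libraries, and LHCB1.4 is too thin to see.

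The 4 LHCA genes, whose proteins form the belt of light-harvesting complex I on one side of photosystem I, changed less than the LHCB genes. All 4 rose in ibm1 jmj27 and in ibm1, and 3 rose in pds5, with median log2 fold changes of 1.00, 0.40 and 0.88 in ibm1 jmj27, pds5 and ibm1. In the same order, 26.7%, 25.8% and 16.5% of all tested genes passed as higher. LHCA4 (AT3G47470) had 1556 and 1765 CPM in ibm1 jmj27, 1119 and 1129 CPM in pds5, 1422 and 1426 CPM in ibm1, and 729 and 716 CPM in Col. All mutant libraries were above Col, by 1.2002 ± 0.09, 0.64 ± 0.08 and 0.98 ± 0.08 on the log2 scale (edgeR adjusted p = 6.1e-08, 3.0e-05 and 1.5e-06). LHCA3 (AT1G61520), the least changed, had 1009 and 1201 CPM in ibm1 jmj27, 679 and 734 CPM in pds5, 1136 and 1058 CPM in ibm1, and 683 and 659 CPM in Col. It rose by 0.72 ± 0.10 in ibm1 jmj27 and 0.71 ± 0.10 in ibm1 (edgeR adjusted p = 2.9e-05 and 8.4e-05), whereas the pds5 libraries overlapped those of Col (0.07 ± 0.09, edgeR adjusted p = 0.55). LHCA1 rose in all 3 mutants (1.06, 0.49 and 1.02). LHCA2 rose by 0.94, 0.31 and 0.79, and its call in pds5 ended without pds5 replicate 2 or Col replicate 2 (0.25 to 0.28, edgeR adjusted p up to 0.1).

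The photosystem I subunit genes rose in ibm1 jmj27 and ibm1. All 12 rose in ibm1 jmj27 (median log2 fold change 0.61) and in ibm1 (0.48). In pds5, 4 rose, 2 fell and 6 did not pass (0.09), near the 49% of all tested genes that passed there. Of all tested genes, 25.8% passed as higher and 23.2% as lower in pds5. In ibm1 jmj27 and ibm1, 26.7% and 16.5% passed as higher. PSAL (AT4G12800), which joins the docking site for mobile LHCII, had 1203 and 1317 CPM in ibm1 jmj27, 925 and 994 CPM in pds5, 1311 and 1241 CPM in ibm1, and 943 and 883 CPM in Col. Its pds5 libraries overlapped Col, and its changes were 0.46 ± 0.09 in ibm1 jmj27, 0.07 ± 0.09 in pds5 and 0.48 ± 0.09 in ibm1 (edgeR adjusted p = 5.2e-04, 0.51 and 8.3e-04). PSAK (AT1G30380), a membrane subunit on the side of the LHCA belt, had 583 and 568 CPM in ibm1 jmj27, 390 and 385 CPM in pds5, 360 and 320 CPM in ibm1, and 251 and 230 CPM in Col. It was above Col in every mutant library and had the largest change of the group in ibm1 jmj27 and in pds5, at 1.26 ± 0.08, 0.69 ± 0.08 and 0.50 ± 0.08 in ibm1 jmj27, pds5 and ibm1 (edgeR adjusted p = 3.5e-08, 1.4e-05 and 5.3e-04).

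PSAD1 and PSAF fell in pds5. PSAD1 (AT4G02770), a stromal subunit where ferredoxin docks, had 594 and 663 CPM in ibm1 jmj27, 388 and 391 CPM in pds5, 671 and 630 CPM in ibm1, and 476 and 475 CPM in Col. The pds5 libraries were the lowest of the 8, with a log2 fold change of -0.29 ± 0.08 (edgeR adjusted p = 0.0098), against 0.40 ± 0.08 in ibm1 jmj27 and 0.45 ± 0.08 in ibm1. PSAF (AT1G31330), where plastocyanin docks on the lumen side, had 978 and 1031 CPM in ibm1 jmj27, 559 and 592 CPM in pds5, 870 and 830 CPM in ibm1, and 750 and 652 CPM in Col. It was again lowest in pds5 (-0.28 ± 0.09, edgeR adjusted p = 0.016) and higher in ibm1 jmj27 (0.52 ± 0.09) and ibm1 (0.28 ± 0.09, edgeR adjusted p = 0.028). The fall of PSAD1 did not pass when any 1 of the pds5 or Col libraries was left out (-0.30 to -0.29, edgeR adjusted p up to 0.0655), nor did that of PSAF without pds5 replicate 1 or Col replicate 1 (-0.25 to -0.18, edgeR adjusted p up to 0.226). The rise of PSAF in ibm1 ended without pds5 replicate 2, either ibm1 library or Col replicate 2 (0.18 to 0.30, edgeR adjusted p up to 0.306).

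PSAE2 (AT2G20260), one of the 2 genes for the PsaE subunit next to PsaD, was nearly level across the mutants, with 206 and 197 CPM in ibm1 jmj27, 191 and 205 CPM in pds5, 210 and 192 CPM in ibm1, and 161 and 153 CPM in Col. Its libraries overlapped between the 3 mutants and stood above Col, with log2 fold changes of 0.36 ± 0.08, 0.33 ± 0.08 and 0.36 ± 0.08 (edgeR adjusted p = 0.0017, 0.0029 and 0.0036). The pds5 call ended without Col replicate 2 (0.29, edgeR adjusted p = 0.0532), and the ibm1 call without ibm1 replicate 1 or Col replicate 2 (0.29 to 0.32, edgeR adjusted p up to 0.0714). The other copy, PSAE1, rose by 0.68 in ibm1 jmj27 and 0.78 in ibm1 and was at 0.10 in pds5, which did not pass. PSAD2, the other PsaD gene, was at 0.85, -0.17 and 0.87 in ibm1 jmj27, pds5 and ibm1, and the pds5 value did not pass. PSAN, a lumenal subunit, rose by 1.06 in ibm1 jmj27 and by 0.37 in ibm1, the second call ending without any 1 of the ibm1 or Col libraries (0.31 to 0.41, edgeR adjusted p up to 0.142). PSAG, PSAH1, PSAH2 and PSAO rose in ibm1 jmj27 by 0.58, 0.51, 0.64 and 0.91 and in ibm1 by 0.68, 0.44, 0.47 and 0.62. In pds5 PSAG and PSAH2 did not pass, and PSAH1 and PSAO passed at 0.23 and 0.25. The calls of PSAH1 and PSAO in pds5 ended without either pds5 library, ibm1 replicate 2 or Col replicate 2, and that of PSAH1 also without Col replicate 1 (0.19 to 0.27 and 0.17 to 0.26, edgeR adjusted p up to 0.197 and 0.254).

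Photosystem II subunit genes followed much the same order as those of photosystem I. All 10 rose in ibm1 jmj27 (median log2 fold change 0.59) and 9 in ibm1 (0.51). In pds5, 3 rose, 1 fell and 6 did not pass (0.17). In this joint fit the share that passed was below the 49% of all tested genes. With pds5 and Col fitted alone, PSBO1, PSBO2, PSBQ1 and PSBS also passed, so the low share depends on which libraries were fitted. Of all tested genes, 26.7%, 25.8% and 16.5% passed as higher in ibm1 jmj27, pds5 and ibm1. PSBO1 (AT5G66570), the main gene for the protein that stabilises the manganese cluster of water oxidation, had 2149 and 2174 CPM in ibm1 jmj27, 1442 and 1432 CPM in pds5, 1908 and 1881 CPM in ibm1, and 1318 and 1257 CPM in Col. The ibm1 jmj27 and ibm1 libraries were well apart from Col (0.75 ± 0.08 and 0.56 ± 0.08, edgeR adjusted p = 3.5e-06 and 1.3e-04), and pds5 was at 0.16 ± 0.08, which did not pass (edgeR adjusted p = 0.11). PSBO2 (AT3G50820), the second gene for the same protein, had 530 and 610 CPM in ibm1 jmj27, 304 and 329 CPM in pds5, 445 and 435 CPM in ibm1, and 288 and 288 CPM in Col. Its change in ibm1 jmj27 was the largest of the group at 0.98 ± 0.09, beside 0.13 ± 0.09 in pds5 and 0.61 ± 0.09 in ibm1 (edgeR adjusted p = 5.5e-07, 0.22 and 1.3e-04).

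The 2 PsbQ genes, which encode another extrinsic protein of the oxygen-evolving complex, parted in pds5. PSBQ1 (AT4G21280) had 607 and 688 CPM in ibm1 jmj27, 533 and 562 CPM in pds5, 551 and 542 CPM in ibm1, and 472 and 495 CPM in Col. PSBQ2 (AT4G05180) had 556 and 657 CPM in ibm1 jmj27, 327 and 363 CPM in pds5, 522 and 505 CPM in ibm1, and 433 and 426 CPM in Col. The pds5 libraries were thus the lowest of all for PSBQ2 and between ibm1 jmj27 and Col for PSBQ1, and PSBQ1 took 62.0% and 60.8% of the counts of the pair in pds5, against 52.2% and 53.8% in Col. PSBQ1 rose in ibm1 jmj27 (0.42 ± 0.08, edgeR adjusted p = 9.4e-04) and did not pass in pds5 or ibm1 (0.18 ± 0.08 in both). PSBQ2 rose in ibm1 jmj27 (0.50 ± 0.09, edgeR adjusted p = 5.2e-04), fell in pds5 (-0.32 ± 0.09, edgeR adjusted p = 0.012) and rose in ibm1 (0.26 ± 0.09, edgeR adjusted p = 0.048). The fall in pds5 ended without pds5 replicate 1 or either Col library (-0.33 to -0.24, edgeR adjusted p up to 0.131), and the rise in ibm1 without any 1 library of pds5, ibm1 or Col (0.23 to 0.27, edgeR adjusted p up to 0.234).

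Of the remaining photosystem II genes, PSBP1, for another extrinsic protein of water oxidation, rose in ibm1 jmj27 and ibm1 (0.49 and 0.42) and overlapped with Col in pds5 (-0.11). PSBS, for the sensor of lumen acidity in photoprotective quenching, rose by 0.54 and 0.38 in ibm1 jmj27 and ibm1 and did not pass in pds5 (0.21, edgeR adjusted p = 0.057). Both calls in ibm1 ended without ibm1 replicate 1 or Col replicate 2 (0.35 to 0.37 and 0.34 to 0.36, edgeR adjusted p up to 0.0905 and 0.0672). Among the small membrane subunits, PSBW rose in all 3 mutants (0.89, 0.61 and 0.49), and PSBX in ibm1 jmj27 and ibm1 (0.65 and 0.52). PSBR and PSBY rose by 0.64 and 0.52 in ibm1 jmj27, 0.30 and 0.33 in pds5, and 0.54 and 0.55 in ibm1. In pds5 the call of PSBR ended without pds5 replicate 2 or Col replicate 1 (0.21 to 0.28, edgeR adjusted p up to 0.175), and that of PSBY without pds5 replicate 2 or Col replicate 2 (0.30 to 0.31, edgeR adjusted p up to 0.0593).

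Among the Rubisco genes, activase changed more than the small subunit. RCA (AT2G39730) had 2314 and 3002 CPM in ibm1 jmj27, 2493 and 2589 CPM in pds5, 1598 and 1588 CPM in ibm1, and 1115 and 1081 CPM in Col. The pds5 libraries fell inside the range of ibm1 jmj27 and all mutant libraries were above Col, with log2 fold changes of 1.28 ± 0.11, 1.21 ± 0.11 and 0.54 ± 0.11 (edgeR adjusted p = 3.9e-07, 6.8e-07 and 0.0019). RCA was the member of the Rubisco group with the largest change in every mutant. RBCS1A (AT1G67090), the most highly counted small-subunit gene, had 8263 and 8031 CPM in ibm1 jmj27, 6644 and 6444 CPM in pds5, 6885 and 6687 CPM in ibm1, and 5725 and 5707 CPM in Col. All mutant libraries exceeded Col, and the changes were 0.51 ± 0.08, 0.20 ± 0.08 and 0.25 ± 0.08 (edgeR adjusted p = 1.7e-04, 0.063 and 0.035), so that pds5 did not pass. The ibm1 call ended without any 1 library of pds5, ibm1 or Col (0.23 to 0.26, edgeR adjusted p up to 0.208).

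RBCS1B (AT5G38430) was the 1 member that did not pass as higher in ibm1 jmj27, the 1 that fell in ibm1, and 1 of the 4 that fell in pds5. It had 915 and 988 CPM in ibm1 jmj27, 764 and 790 CPM in pds5, 715 and 673 CPM in ibm1, and 928 and 874 CPM in Col. The ibm1 jmj27 libraries overlapped those of Col, and the pds5 and ibm1 libraries were below both. RBCS1B was at 0.08 ± 0.08 in ibm1 jmj27, which did not pass (edgeR adjusted p = 0.45), and fell in pds5 (-0.21 ± 0.08, edgeR adjusted p = 0.044) and ibm1 (-0.38 ± 0.08, edgeR adjusted p = 0.0034). The call in pds5 ended without any 1 library of pds5, ibm1 or Col (-0.26 to -0.17, edgeR adjusted p up to 0.258), and that in ibm1 without ibm1 replicate 2 or Col replicate 1 (-0.35 to -0.33, edgeR adjusted p up to 0.067). Its neighbours RBCS2B and RBCS3B were higher: RBCS2B by 0.93 in ibm1 jmj27 and 0.58 in pds5, with 0.13 in ibm1, which did not pass, and RBCS3B by 0.89, 0.43 and 0.37. The ibm1 call of RBCS3B ended without ibm1 replicate 2 or Col replicate 2 (0.36, edgeR adjusted p up to 0.0539).

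Summed over its members, each group gave the same ranking of ibm1 jmj27 first and Col last, but the 2 other mutants changed places between groups. The LHCB genes summed to 21193 ± 1374 CPM in ibm1 jmj27, 14274 ± 498 in pds5, 18384 ± 198 in ibm1 and 8187 ± 124 in Col. The Rubisco genes summed to 17808 ± 580 CPM in ibm1 jmj27, 14361 ± 89.6 in pds5, 13146 ± 188 in ibm1 and 10972 ± 115 in Col, so here pds5 was above ibm1. Photosystem I summed to 7580 ± 386 CPM in ibm1 jmj27, 4992 ± 170 in pds5, 6871 ± 248 in ibm1 and 4816 ± 148 in Col. The photosystem I sums of the pds5 and Col libraries overlapped, and their means stood at 1.04-fold, beside 1.11-fold for photosystem II, 1.322-fold for LHCA, 1.74-fold for LHCB and 1.31-fold for Rubisco. The same ratios were 1.57, 1.55, 2.00, 2.59 and 1.62 in ibm1 jmj27 and 1.43, 1.38, 1.85, 2.25 and 1.198 in ibm1.

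**Figure D4:**
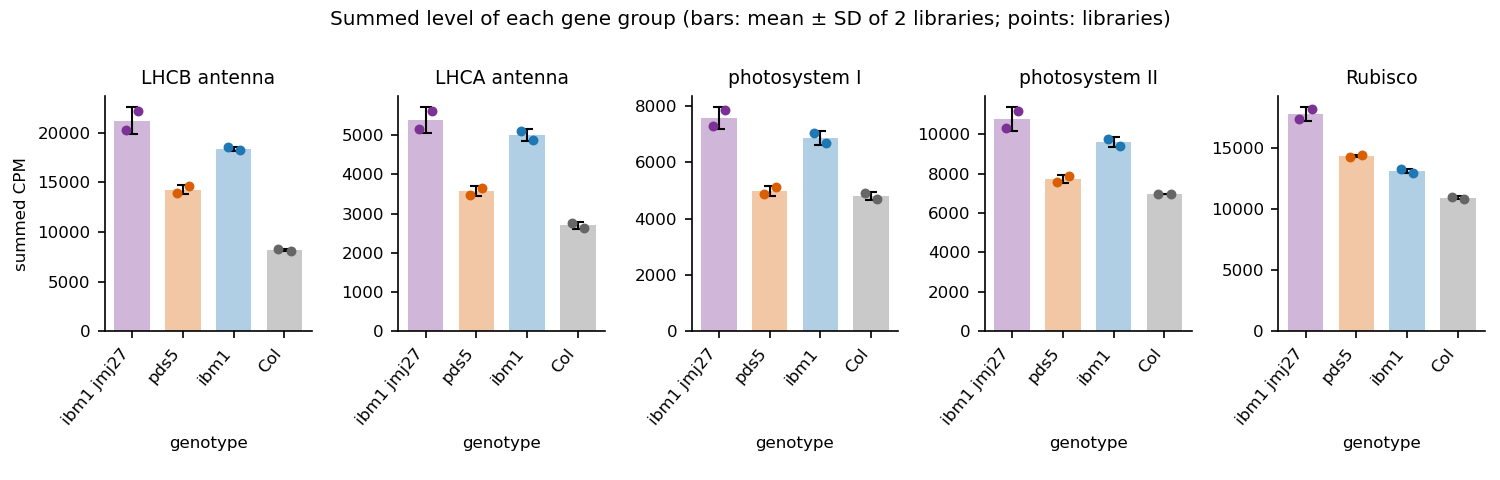
Bars show the mean summed CPM of each gene group in ibm1 jmj27, pds5, ibm1 and Col, with the SD of 2 libraries as error bars and the libraries as points, on axes that start at 0. Col is lowest in all 5 groups, and pds5 lies close to Col for photosystem I and above ibm1 for Rubisco.

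Antenna counts also stood higher relative to those of the photosystems. The ratio of summed LHCB to summed photosystem II CPM was 1.96 and 1.98 in ibm1 jmj27, 1.83 and 1.86 in pds5, 1.89 and 1.94 in ibm1, and 1.19 and 1.16 in Col. Set against photosystem I, the summed LHCB CPM gave ratios of 2.77 and 2.82 in ibm1 jmj27, 2.86 and 2.86 in pds5, 2.63 and 2.72 in ibm1, and 1.68 and 1.72 in Col. All 6 mutant libraries were above both Col libraries in these ratios, although the photosystem I sum itself differed widely among the mutants. The ratio of summed LHCA to summed photosystem I CPM was likewise 0.706 and 0.716 in ibm1 jmj27, 0.715 and 0.715 in pds5, 0.724 and 0.730 in ibm1, and 0.561 and 0.561 in Col. RCA over summed RBCS was 0.153 and 0.197 in ibm1 jmj27, 0.211 and 0.219 in pds5, 0.137 and 0.139 in ibm1, and 0.112 and 0.110 in Col. The ratio of photosystem II to photosystem I stayed between 1.39 and 1.56 in all 8 libraries, highest in both pds5 libraries. Across the 44 genes, the log2 fold change was lower where the Col level was higher, with Pearson's r = -0.51 in ibm1 jmj27, -0.32 in pds5 and -0.51 in ibm1. These correlations are descriptions over genes that share libraries, and the Col level enters both quantities.

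Set against ibm1, the single mutant it contains, ibm1 jmj27 had 22 of the 44 genes higher and 0 lower, while 45.5% of all tested genes passed, 22.7% as higher and 22.8% as lower. Of the 44, 0 were higher by at least 1 on the log2 scale, against 5.4% of all tested genes. The median was 0.22, beside 0.00 over all tested genes. All 5 Rubisco genes were higher in ibm1 jmj27, led by RBCS2B (0.80 ± 0.10) and RCA (0.74 ± 0.11), and 8 of 13 LHCB genes, led by LHCB4.3 (0.71 ± 0.07) and LHCB6 (0.70 ± 0.08). In photosystem I 4 of 12 genes were higher, among them PSAK (0.76 ± 0.08) and PSAN (0.69 ± 0.10), in photosystem II 4 of 10, and in LHCA 1 of 4. LHCB1.2, LHCB1.3, LHCB1.4, LHCB1.5 and LHCB4.1 did not pass, with differences between -0.07 and 0.22. The count dropped to 13 without ibm1 replicate 2. Of the 22 calls, 9 ended when some 1 library was left out. LHCA4, the only LHCA call, ended in 7 of the 8 cases (0.13 to 0.22, edgeR adjusted p up to 0.229), as did PSBQ2 (0.11 to 0.26, edgeR adjusted p up to 0.282). PSBQ1 and PSAF ended in 5 and 6 cases (edgeR adjusted p up to 0.206 and 0.281). RBCS1A and LHCB4.2 ended without either ibm1 library (0.22 to 0.28 and 0.25 to 0.27, edgeR adjusted p up to 0.175 and 0.117), and LHCB5, PSAO and PSBO2 without ibm1 replicate 2 (0.37, 0.21 and 0.34, edgeR adjusted p = 0.0544, 0.187 and 0.0628).

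Set against pds5, ibm1 jmj27 had 41 of 44 genes higher and 0 lower, while 39.9% of all tested genes passed, 19.1% as higher and 20.7% as lower. LHCB1.4 and PSAD2 were the 2 members higher by at least 1 on the log2 scale, against 4.28% of all tested genes. The median was 0.58, beside -0.00 over all tested genes. LHCB1.4 (1.76 ± 0.13), PSAD2 (1.02 ± 0.08) and LHCB3 (0.95 ± 0.11) differed most, and PSAE2, PSBY and RCA did not pass. RCA was at 0.06 ± 0.11, which turned to -0.14 without ibm1 jmj27 replicate 2 (edgeR adjusted p = 0.0475) and to 0.24 without ibm1 jmj27 replicate 1 (edgeR adjusted p = 0.00127), so that its order between these genotypes rests on single libraries. Of the 41 calls, 11 ended when some 1 library was left out. LHCB4.3 and PSBQ1 ended without any 1 library of pds5, ibm1 or Col (0.18 to 0.21 and 0.20 to 0.25, edgeR adjusted p up to 0.171 and 0.206). The calls of LHCB1.5, LHCB5, PSAH1, PSBR, PSBS, PSBW, RBCS1A, RBCS1B and RBCS2B each ended without 1 or more of pds5 replicate 1, pds5 replicate 2 and ibm1 replicate 2, with edgeR adjusted p up to 0.160. Between the remaining mutants, pds5 had 3 genes higher and 28 lower than ibm1, while 44.5% of all tested genes passed, 22.9% as higher and 21.5% as lower. Members higher by at least 1 on the log2 scale numbered 0 in pds5 over ibm1, against 6.14% of all tested genes. The 3 higher genes were RCA (0.67 ± 0.11), LHCB4.3 (0.50 ± 0.07) and RBCS2B (0.46 ± 0.10), and the lower ones included 9 LHCB genes, all 4 LHCA genes, 9 of photosystem I and 6 of photosystem II, led by LHCB1.4 (-1.54 ± 0.13) and PSAD2 (-1.04 ± 0.08). Of the 28 calls as lower, 6 ended when some 1 library was left out. LHCB2.2, PSAH1 and PSBR ended without any 1 library of pds5, ibm1 or Col (-0.30 to -0.18, -0.27 to -0.14 and -0.24 to -0.21, edgeR adjusted p up to 0.288, 0.347 and 0.194). LHCB3 ended without pds5 replicate 1 or ibm1 replicate 1 (-0.36 to -0.34, edgeR adjusted p up to 0.0868), LHCA4 without ibm1 replicate 2 (-0.33, edgeR adjusted p = 0.0597) and PSAO without ibm1 replicate 1 (-0.30, edgeR adjusted p = 0.0569).

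Other genes of photosynthesis were examined as lists beside the module. Over all tested genes, 26.7% passed as higher and 23.8% as lower in ibm1 jmj27. The shares were 25.8% and 23.2% in pds5, and 16.5% and 14.5% in ibm1. They stand beside the counts of every list below. Of 11 further LHC-family and photosystem genes, 10 rose and 0 fell in ibm1 jmj27, 9 rose and 1 fell in pds5, and 7 rose and 0 fell in ibm1. LHCB2.3, a further LHCB2 copy, had 365 and 468 CPM in ibm1 jmj27, 114 and 132 CPM in pds5, 202 and 187 CPM in ibm1, and 41.1 and 36.5 CPM in Col. ELIP1, an early light-induced protein that binds chlorophyll under stress, had 779 and 792 CPM in ibm1 jmj27, 931 and 876 CPM in pds5, 153 and 145 CPM in ibm1, and 77.98 and 74.3 CPM in Col. The 2 genes were highest in different mutants, and ELIP2 rose in ibm1 jmj27 and pds5 (3.08 and 3.23) but was at -0.04 in ibm1, which did not pass.

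Of 14 genes for electron transport and ATP synthase, 12 rose and 1 fell in ibm1 jmj27, 7 rose and 1 fell in pds5, and 6 rose and 1 fell in ibm1. PGR5, which takes part in cyclic electron flow around photosystem I, rose by 1.88, 1.76 and 1.09 in ibm1 jmj27, pds5 and ibm1, while FNR2, a ferredoxin-NADP reductase, fell by 0.77 in ibm1 jmj27 and by 0.87 in pds5. Of 19 Calvin cycle genes, 12 rose and 2 fell in ibm1 jmj27, 11 rose and 2 fell in pds5, and 8 rose and 0 fell in ibm1. The plastid aldolase gene FBA1 rose most (1.67, 1.27 and 0.68), and the transketolase gene TKL2 fell in ibm1 jmj27 and pds5 (-1.95 and -0.61). The median over the Calvin cycle list was 0.40, 0.31 and 0.26 in ibm1 jmj27, pds5 and ibm1, beside 0.89, 0.43 and 0.25 for the Rubisco group.

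Chlorophyll synthesis did not move in 1 direction. Of 23 genes, 10 rose and 3 fell in ibm1 jmj27, and 8 rose and 8 fell in pds5. In ibm1, 11 rose and 1 fell. The 13 called in ibm1 jmj27 were near the 50.5% of all tested genes that passed in that comparison. The medians were 0.09, -0.11 and 0.22 in ibm1 jmj27, pds5 and ibm1. CAO, which makes the chlorophyll b that LHC proteins bind, had 98.3 and 126 CPM in ibm1 jmj27, 98.1 and 101 CPM in pds5, 97.99 and 95.9 CPM in ibm1, and 38.9 and 41.3 CPM in Col. It thus stood at about the same level in the 3 mutants and above Col in each (1.48 ± 0.10, 1.31 ± 0.10 and 1.27 ± 0.10). GUN4, an activator of magnesium chelatase, rose by 1.72, 1.73 and 1.16. PORB, which reduces protochlorophyllide in the light, had 47.9 and 65.6 CPM in ibm1 jmj27, 72.4 and 79.3 CPM in pds5, 451 and 436 CPM in ibm1, and 504 and 474 CPM in Col. PORB fell in ibm1 jmj27 and pds5 (-3.11 ± 0.13 and -2.69 ± 0.12) and did not pass in ibm1 (-0.14 ± 0.11, edgeR adjusted p = 0.38). Both ibm1 libraries were nevertheless below both Col libraries for PORB. Whether PORB passed in ibm1 depended on the ibm1 jmj27 libraries in the joint fit, while its log2 fold change stayed at -0.14 without either of them.

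Of 15 listed regulators of chloroplast genes, 9 rose and 2 fell in ibm1 jmj27 and in pds5, and 8 rose and 0 fell in ibm1. GLK1, a transcription factor that activates nuclear photosynthesis genes, had 131 and 135 CPM in ibm1 jmj27, 92.9 and 91.6 CPM in pds5, 97.3 and 101 CPM in ibm1, and 37.8 and 35.6 CPM in Col. GLK2, its close relative, had 28.4 and 34.9 CPM in ibm1 jmj27, 27.5 and 26.9 CPM in pds5, 27.7 and 30.1 CPM in ibm1, and 10.98 and 13.3 CPM in Col. Both were above Col in all 6 mutant libraries, by 1.86 ± 0.07, 1.33 ± 0.07 and 1.44 ± 0.07 for GLK1 and 1.38 ± 0.12, 1.16 ± 0.12 and 1.25 ± 0.12 for GLK2. Of the other regulators, HYH, PIF4, PIF5, SIG1 and SIG5 also rose in ibm1, led by PIF5 (1.98). HY5, GNC and CGA1 differed from the GLK genes in ibm1. HY5, a bZIP activator of light responses, had 32.8 and 25.4 CPM in ibm1 jmj27, 47.1 and 42.9 CPM in pds5, 8.63 and 9.34 CPM in ibm1, and 9.24 and 8.78 CPM in Col. It was high in ibm1 jmj27 and pds5 (1.70 ± 0.13 and 2.32 ± 0.12), and its ibm1 libraries overlapped those of Col. The GATA factor genes GNC and CGA1 rose in ibm1 jmj27 (1.42 and 1.83) and pds5 (1.43 and 1.68). In ibm1, CGA1 did not pass (-0.50 ± 0.45), and GNC passed at 0.50 ± 0.16 (edgeR adjusted p = 0.032) but not without any 1 of the ibm1 or Col libraries (0.37 to 0.62, edgeR adjusted p up to 0.247). The parts of these regulators in the levels of the module were not tested.

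**Figure D5:**
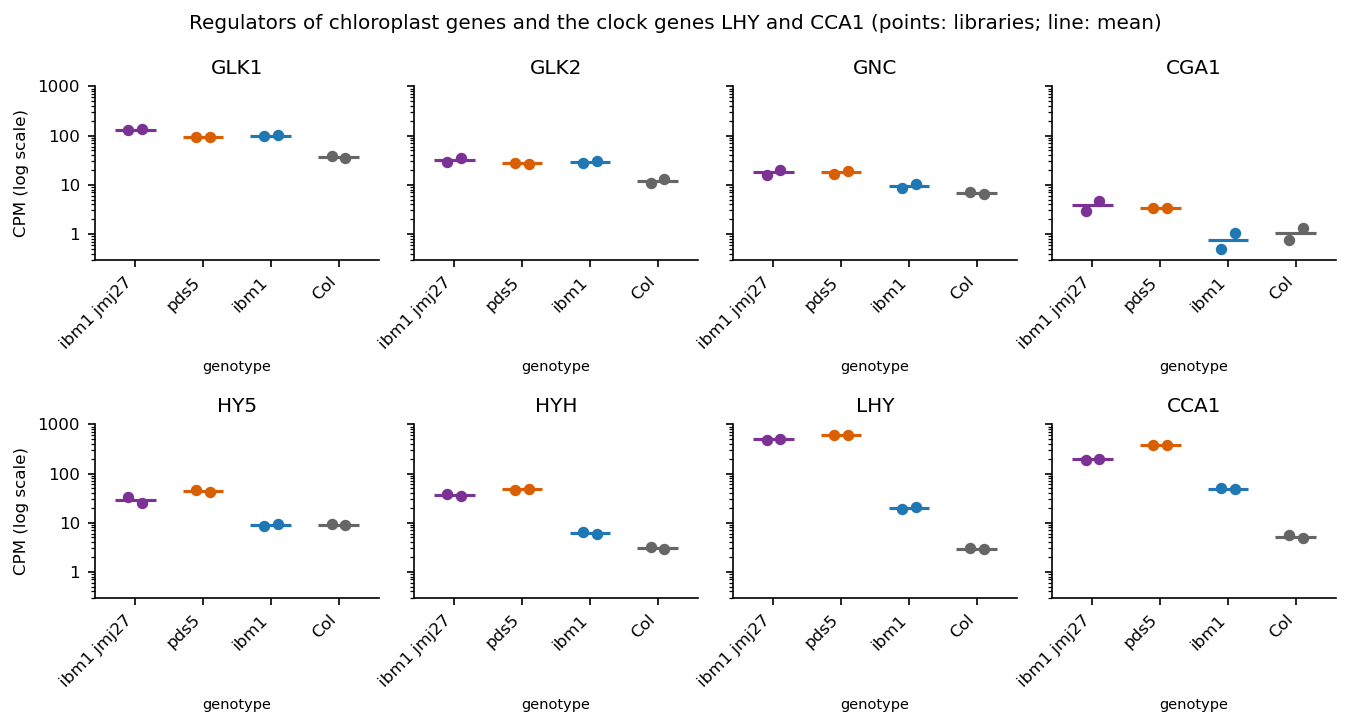
Points are the CPM of each library and lines the genotype means, on a log axis shared by all panels, for 6 regulators of chloroplast genes and for the clock genes LHY and CCA1, with ibm1 jmj27, pds5, ibm1 and Col from left to right. GLK1 and GLK2 lie above Col in all 3 mutants, whereas HY5 and HYH are far higher in ibm1 jmj27 and pds5 than in ibm1, and LHY spans 2.86 to 607 CPM.

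Several other groups of genes moved with the genotypes. Of the 12 listed clock genes, 5 were higher and 7 lower than in Col in ibm1 jmj27 and in pds5, and 6 were higher and 6 lower in ibm1. LHY, a morning gene of the clock, had 484 and 502 CPM in ibm1 jmj27, 607 and 597 CPM in pds5, 18.6 and 20.5 CPM in ibm1, and 3.01 and 2.86 CPM in Col. By genotype mean, LHY was highest in pds5, followed by ibm1 jmj27, ibm1 and Col. The LHCB sum was highest in ibm1 jmj27, followed by ibm1, pds5 and Col. In pds5 against ibm1, 9 of the 13 LHCB genes passed as lower, LHCB4.3 as higher and 3 did not pass. Of all tested genes, 21.5% passed as lower there. The part of LHY in the levels of the module was not tested. LHCB and RCA genes are known to follow the clock and the light cycle, and with no harvest time in the labels clock state and genotype cannot be told apart in any of these comparisons.

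Markers of anther tissue also differed in level between genotypes. The 16 tapetum markers, genes of the anther layer that nourishes pollen, summed to 1716 and 2796 CPM in ibm1 jmj27, 1059 and 1578 CPM in pds5, 1969 and 1937 CPM in ibm1, and 3123 and 3523 CPM in Col. In ibm1 jmj27, pds5 and ibm1, 6, 12 and 7 of them passed as lower and 0 as higher, where 23.8%, 23.2% and 14.5% of all tested genes passed as lower. In ibm1 jmj27 the share of tapetum markers that passed in either direction was below the 50.5% of all tested genes. The 11 pollen markers summed to 12.8 and 13.5 CPM in ibm1 jmj27, 289 and 365 CPM in pds5, 116 and 116 CPM in ibm1, and 331 and 313 CPM in Col. Of these, ADF7 had 0 counts in both ibm1 jmj27 libraries, and 9 of the 10 that could be tested were lower in ibm1 jmj27. The other, ANX1, had 10.4 and 11.3 CPM in ibm1 jmj27 and 10.7 and 10.1 CPM in Col. It thus made up most of the sum in ibm1 jmj27. The 12 floral organ identity genes summed to 1349 and 1463 CPM in ibm1 jmj27, 1484 and 1415 CPM in pds5, 1207 and 1232 CPM in ibm1, and 1249 and 1282 CPM in Col, and the 7 guard cell and stomatal lineage markers to 58.4 and 59.5, 67.3 and 68.2, 81.9 and 80.1, and 78.1 and 86.1 CPM in the same order of genotypes. Of these 7, 1 passed as higher and 1 as lower in ibm1 jmj27, 2 as higher and 2 as lower in pds5, and 0 in ibm1. KAT1, the 1 lower in ibm1 jmj27, had 4.97 and 6.95 CPM there and 19.7 and 22.3 CPM in pds5. It had 28.9 and 29.6 CPM in ibm1 and 29.4 and 37.6 CPM in Col, so the lower sum in ibm1 jmj27 rested on this gene. In pds5 over Col, the summed pollen markers stood at 1.01-fold, the tapetum markers at 0.397-fold and the LHCB genes at 1.74-fold. The part of organ and cell makeup in the levels of the module was not tested.

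Transcripts annotated in the plastid genome, which lack the long poly(A) tails selected here, made up 0.0364% and 0.0300% of counts in ibm1 jmj27, 0.0104% and 0.01003% in pds5, 0.0154% and 0.0157% in ibm1, and 0.0155% and 0.0141% in Col. They were too few to stand for plastid expression, and are given only as a measure of what the selection let through.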

How the data were processed

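Poly(A) RNA libraries of closed buds were counted per gene by the authors, who deposited raw counts in 3 tables, 1 per mutant, each with the same 2 Col columns (0 values differed). HISAT2, Subread and DESeq2 and the TAIR10 build are named in the submitters' processing notes, without settings. Treatment of strand and of reads with several matches is not given in the sources used here. Gene names and neighbours came from RefSeq (TAIR10.1), in which all 44 members matched by locus. Promoter and protein sequences were not used here.

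The 8 libraries were fitted together in edgeR 4.0.16 (R 4.3.3) after filtering with filterByExpr and TMM normalization, which left 21548 genes and 4 residual degrees of freedom. The 6 comparisons were made with robust quasi-likelihood tests and Benjamini-Hochberg adjustment over all tested genes, and the code was tested on simulated counts. CPM used TMM-scaled library sizes. Levels of different genes were not compared per length. Members and lists were chosen with earlier results of these data known. Values per library are given for the most abundant and the most and least changed member of each group, members called against their group, and families whose shares differed most. Of the context lists, up to 4 genes with the smallest p in ibm1 jmj27 against Col are named, with GLK1, GLK2, GNC, CGA1, HY5, LHY and CCA1. HYH, PIF4, PIF5, SIG1, SIG5, KAT1 and ANX1 are named besides, to show how their lists divide. Alternatives were DESeq2 size factors, DESeq2 1.42.0, no filter, pairs fitted alone, no robust step, a replicate block, stricter thresholds and each library left out.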

Additional observations from a re-analysis of the deposited data

How the results depend on the processing

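All 43 calls in ibm1 jmj27 against Col held under every alternative apart from a minimum fold. Under the alternatives without a minimum fold, 19 of 29 calls held throughout for pds5 and 32 of 41 for ibm1 against Col, 13 of 22 for ibm1 jmj27 against ibm1, 30 of 41 for ibm1 jmj27 against pds5, and 25 of 31 for pds5 against ibm1. With a minimum absolute log2 fold change of 1, the members called in these 6 comparisons, in the same order, were 15, 6, 9, 0, 2 and 2. Leaving out 1 library gave 43 to 43, 21 to 36, 33 to 43, 13 to 28, 31 to 43 and 26 to 36 calls. The 13 came without ibm1 replicate 2, and the 4 falls in pds5 against Col became 0 to 5. The lone library of a genotype was then assumed to vary like the others. A replicate block gave 43, 29, 41, 22, 41 and 32 calls. The labels link same-numbered libraries by nothing but the number, so the block rests on no stated pairing. Correlations of deviations were 0.005 to 0.26, the highest between ibm1 jmj27 and pds5. Whether those libraries shared a batch or stage is not given. Signs turned for differences that did not pass. LHCB4.3 in ibm1 against Col was -0.0119 with DESeq2 size factors, -0.0119 with the DESeq2 Wald test, -0.000524 with the pair fitted alone, and -0.0354 to 0.0510 with a library left out. With a library left out, PSAH2 in pds5 against Col ranged from -0.106 to 0.0336, and in ibm1 against Col HY5 from -0.0723 to 0.0528, ELIP2 from -0.0982 to 0.0124 and FNR2 from -0.000535 to 0.0188. FNR2 was also -0.00588 with DESeq2 size factors and -0.00609 with the Wald test. RCA in ibm1 jmj27 against pds5 ranged from -0.136, without ibm1 jmj27 replicate 2, to 0.240 with a library left out, and passed in opposite directions without either ibm1 jmj27 library. The cause of these changes was not tested. The standard error of CGA1, at most 1.321 CPM per library in ibm1 and Col, was 0.45 in ibm1 against Col.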
